A study of Mus musculus with 4 samples.

Results

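This account covers 10 genes of glycolysis, the pathway that splits glucose into pyruvate or lactate, among the 32285 genes counted in each library. The genes were given as a list by symbol, and all 10 were found: Slc2a1, Hk2, Pfkl, Aldoa, Tpi1, Gapdh, Pgk1, Eno1, Pkm and Ldha. They were described in single-cell RNA profiles of mouse bone marrow, overall and within groups of cells defined by surface CD150 and CD48. The cells were sorted as CD45.2+Lin-Sca1+Kit+ (LSK), the gate in which blood-forming stem cells and their first progeny are found, and came from bone marrow 10 weeks after transplantation. The 4 libraries were labelled control, Mll3 deleted, Mll4 deleted and Mll3/4 deleted, with 1 library per genotype. The labels say neither how many mice a library holds nor how or when the genes were deleted, and they give no strain. Each cell was also stained with 6 barcoded antibodies. No difference between genotypes therefore has a replicate check, and neither a test nor a p-value is given. Intervals below are 95% exact intervals and cover counting error only.

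Glycolysis runs in a fixed order. Glucose enters through transporters such as the product of Slc2a1, is phosphorylated by hexokinases such as that of Hk2, and is committed to the pathway by phosphofructokinase, of which Pfkl encodes the liver-type subunit. Aldolase (Aldoa) and triosephosphate isomerase (Tpi1) then make the triose phosphates, the enzymes of Gapdh, Pgk1, Eno1 and Pkm turn these into pyruvate while ATP is formed, and lactate dehydrogenase A (Ldha) reduces pyruvate to lactate. Quiescent blood stem cells are known for relying on glycolysis, and several of these genes are textbook targets of the hypoxia-inducible factor HIF-1. Mll3 and Mll4 are the proteins of Kmt2c and Kmt2d, enzymes that methylate histone H3 at enhancers.

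The promoters of 5 members are printed as examples of windows with the HIF-1 core motif ACGTG (Hk2, Aldoa, Pgk1 and Ldha) and without it (Eno1). The sequences are from RefSeq on GRCm38.p6, from 250 bases before to 50 bases after the listed transcription start, written 5′ to 3′ on the gene's strand. Capitals mark ACGTG or its reverse complement CACGT, merged where matches overlap.
Hk2: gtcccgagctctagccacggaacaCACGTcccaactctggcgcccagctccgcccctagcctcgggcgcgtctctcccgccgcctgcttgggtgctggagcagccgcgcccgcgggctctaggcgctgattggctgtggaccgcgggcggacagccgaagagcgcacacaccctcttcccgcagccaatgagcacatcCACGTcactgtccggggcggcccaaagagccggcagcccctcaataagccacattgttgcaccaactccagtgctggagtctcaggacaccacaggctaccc
Aldoa: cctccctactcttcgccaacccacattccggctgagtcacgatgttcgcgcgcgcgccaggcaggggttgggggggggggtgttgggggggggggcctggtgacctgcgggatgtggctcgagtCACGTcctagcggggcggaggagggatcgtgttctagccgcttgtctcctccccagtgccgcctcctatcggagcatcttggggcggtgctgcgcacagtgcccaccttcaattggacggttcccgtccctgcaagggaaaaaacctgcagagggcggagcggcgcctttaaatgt
Pgk1: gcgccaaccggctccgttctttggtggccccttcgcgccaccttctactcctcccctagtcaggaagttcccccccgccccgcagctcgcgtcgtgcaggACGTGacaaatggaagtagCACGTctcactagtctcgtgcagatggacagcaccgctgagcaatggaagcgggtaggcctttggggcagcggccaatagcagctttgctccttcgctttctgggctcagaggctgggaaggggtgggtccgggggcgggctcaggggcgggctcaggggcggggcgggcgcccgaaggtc
Ldha: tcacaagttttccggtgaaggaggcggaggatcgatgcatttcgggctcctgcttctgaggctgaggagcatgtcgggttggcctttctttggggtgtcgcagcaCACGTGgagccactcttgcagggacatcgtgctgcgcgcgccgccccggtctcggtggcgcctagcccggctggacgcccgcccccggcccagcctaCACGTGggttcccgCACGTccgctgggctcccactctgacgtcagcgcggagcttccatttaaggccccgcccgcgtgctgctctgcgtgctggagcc
Eno1: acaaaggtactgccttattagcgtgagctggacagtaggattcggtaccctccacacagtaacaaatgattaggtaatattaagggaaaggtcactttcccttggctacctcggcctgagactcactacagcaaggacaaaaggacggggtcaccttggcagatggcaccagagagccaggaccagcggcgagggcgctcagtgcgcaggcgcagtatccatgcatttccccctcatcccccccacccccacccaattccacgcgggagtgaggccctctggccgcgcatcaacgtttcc
In the order printed, the windows are chr6:82774405-82774704 on the minus strand, chr7:126799205-126799504 on the minus strand, chrX:106186850-106187149 on the plus strand, chr7:46845554-46845853 on the plus strand and chr4:150236458-150236757 on the plus strand. ACGTG, searched on both strands, was found in the promoters of 7 of the 10 members and in 8 of their 16 listed promoter windows. It was found in 19.62% of all 32851 promoter windows of the same length. The 8 windows include overlapping windows of Aldoa that hold the same match. Where a member has several windows, the one with the most matches was printed. The other listed windows of Ldha and Pkm, and a further one of Aldoa, held none. In the printed windows, matches began 226 and 52 bases before the start in Hk2, 126 bases before in Aldoa, and 150 and 131 bases before in Pgk1. The Ldha window held 5 matches, and 4 of them lay in 2 copies of CACGTG, a palindrome that reads as a match on each strand. CACGTG was found in 7.15% of all windows and in no other window of the members. The windows of Pfkl, Tpi1 and Eno1 held no ACGTG, and those of Slc2a1, Gapdh and Pkm did. Of the members with ACGTG, Slc2a1, Hk2, Aldoa, Pgk1 and Ldha were lower than control by at least 1.5-fold in the Mll3/4-label library. Gapdh and Pkm stayed within that fold. Of the members without it, Pfkl and Tpi1 were lower by at least 1.5-fold there and Eno1 stayed within it. Whether the motif bears on these ratios was not tested. The variant GCGTG was found in the windows of 5 of the 10 members, Eno1 and Pfkl among them, and in 32.39% of all windows. These matches describe letters and were not tested for binding.

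UMIs (unique molecular identifiers) count single captured molecules. Cells were kept when 1000 or more genes were detected and mitochondrial genes took no more than 10% of UMIs. They numbered 7274 in the control, 6101 in the Mll3-label, 4793 in the Mll4-label and 4748 in the Mll3/4-label library, with 50792614 to 120700343 UMIs per library. Pairs of libraries shared 9 to 22 deposited barcodes. Levels are given as CPM, the UMIs of a gene scaled to 1000000 UMIs of the same cells. Kmt2c stood at 68.9 CPM in control, 35.3 in Mll3-label, 61.3 in Mll4-label and 42.3 in Mll3/4-label cells, so it was lower in both libraries with an Mll3 label. Kmt2d stood at 24.6, 21.6, 22.6 and 25.4 CPM in the same order and was not set apart by the Mll4 label. Counts at the 3′ end need not fall when part of a gene is deleted, so this check settles nothing for Kmt2d, and Mll3-label, Mll4-label and Mll3/4-label here name what the library was labelled.

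The libraries also differed in the cells they held, and this stands beside every comparison with control. Cells with at least 5 UMIs of a 10-gene marker list, after each deeper cell was thinned to 3000 UMIs, were counted as high for that list. For this count Ighm and Xbp1 were left out of the mature B and plasma cell list. Il7r and Nkg7 were left out of the T, NK and innate lymphoid list. Sums over a list use all 10 genes. The B-lineage list (Cd79a, Ebf1, Rag1 and others) was high in 0.261% of control, 3.05% of Mll3-label, 0.459% of Mll4-label and 99.4% of Mll3/4-label cells. The granulocyte and monocyte list was high in 7.74%, 10.8%, 44.5% and 0.147% of cells in the same order. The macrophage, mast cell and T, NK or innate lymphoid lists together were high in 0.770%, 1.82%, 38.6% and 0.0842%. Summed over the list, macrophage markers had 6.89 to 17.7 CPM in the other libraries and 677 in the Mll4-label library, and mast cell markers had 3.92 to 26.7 and 1721. The T, NK and innate lymphoid list summed to 175 to 221 CPM in the other libraries and 1050 in the Mll3/4-label library. There 2 of its 10 markers were above control, and 1 cell was high for the list. In the Mll3/4-label library 7 of 10 mast cell markers, 2 of 10 macrophage markers (Lyz1 and Ace) and 3 of 10 T, NK and innate lymphoid markers (Cd3e, Cd3g and Gzma) were at 0. The stem cell list (Mecom, Hlf, Procr and others) summed to 563 CPM in control and 78.8 in the Mll3/4-label library, where 1 cell was high for it. The LSK genes Kit, Ly6a, Cd34 and Ptprc were detected in every library. The mature B and plasma cell list was high in 0.536% of control, 0.934% of Mll3-label, 6.78% of Mll4-label and 62.0% of Mll3/4-label cells, and in the last library 2940 of those 2943 cells were also high for the B-lineage list. Summed over this list, the markers had 3270, 5078, 12640 and 3690 CPM in the same order. Only 5 of its 10 markers were above control in the Mll3/4-label library, so the share of list-high cells does not establish mature B or plasma cells there. Genotype and cell makeup cannot be told apart in the Mll3/4-label library.

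Summed over the 10 members, glycolysis transcripts were most abundant in the Mll3-label library and least abundant in the Mll3/4-label library. The sum was 2782 CPM in control, 3572 in Mll3-label, 2949 in Mll4-label and 1916 in Mll3/4-label cells. Per cell this came to 45.6, 62.0, 74.3 and 20.5 UMIs, with median total UMIs per cell of 14454, 15381, 21400 and 8920. The order of the Mll3-label and Mll4-label libraries thus reversed between CPM and UMIs per cell.

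**Figure D1:**
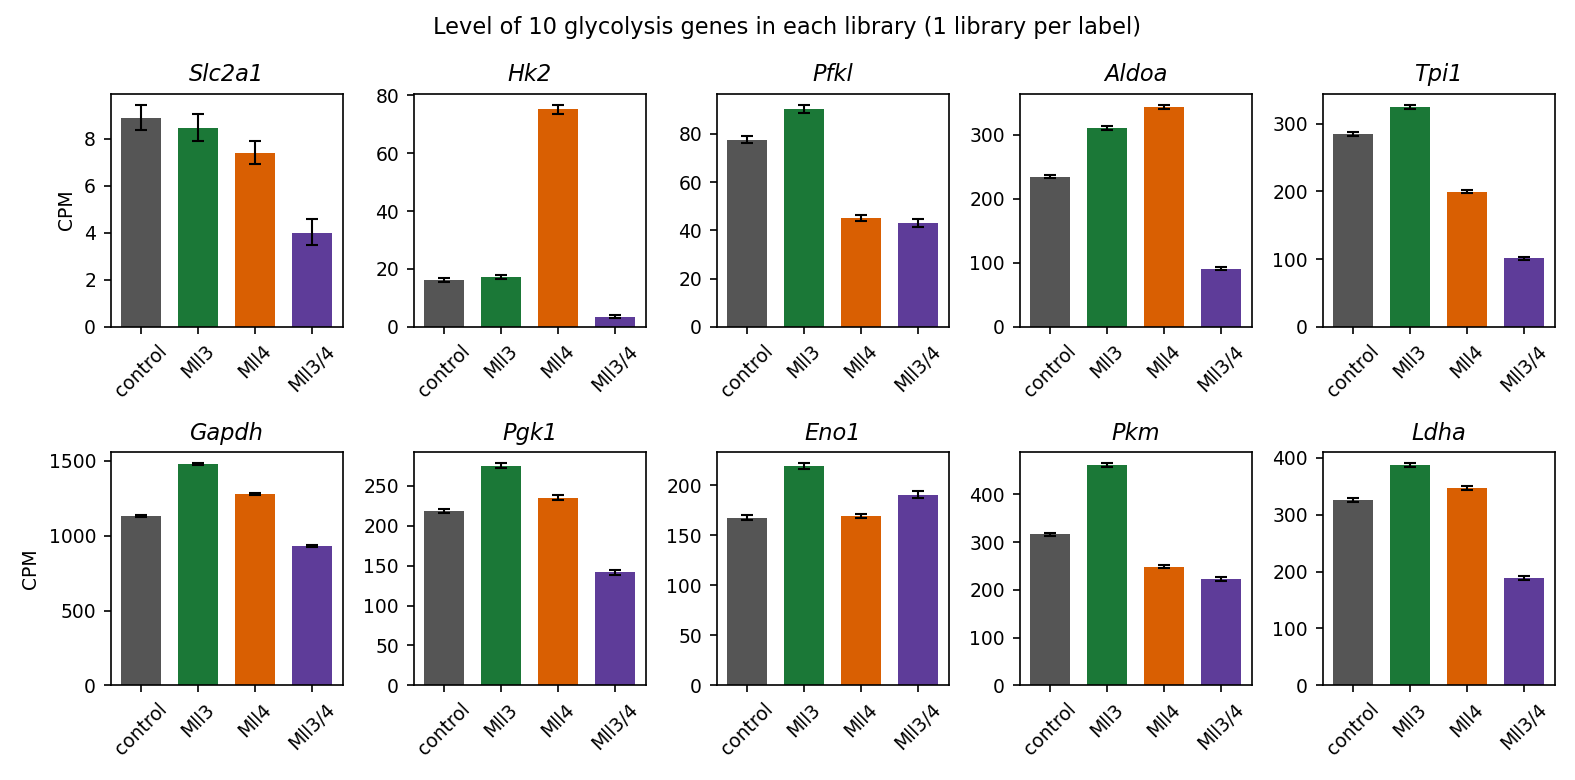
Bars give the level of each member in CPM in the 4 libraries, with 95% Poisson counting intervals; each panel has its own linear axis from 0. Hk2 spans the widest range by fold, from 3.39 in the Mll3/4-label to 75.2 in the Mll4-label library, while Eno1 stays between 167.6 and 219.1.

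The 2 members that act at the entry of glucose had the lowest levels in every library but the Mll4-label one, where Pfkl lay below Hk2. Slc2a1 (chr4:119108711-119137983), the widespread glucose transporter GLUT1, stood at 8.91 CPM in control, 8.47 in Mll3-label, 7.40 in Mll4-label and 4.00 in Mll3/4-label cells. It was thus lowest in the Mll3/4-label library, at a log2 ratio to control of -1.15 (-1.38 to -0.94). Hk2 (chr6:82725025-82774454), the hexokinase that binds mitochondria, stood at 16.2, 17.2, 75.2 and 3.39 CPM in the same order. It was 4.65-fold higher than control in the Mll4-label library and 4.76-fold lower in the Mll3/4-label library, and near control in the Mll3-label library. The 172 UMIs of Hk2 in the Mll3/4-label library leave its log2 ratio of -2.25 with an interval of -2.49 to -2.03.

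Pfkl (chr10:77986947-78010083), which encodes a subunit of the committing enzyme, stood at 77.7 CPM in control, 90.3 in Mll3-label, 45.2 in Mll4-label and 43.0 in Mll3/4-label cells. It was the only member lower than control by at least 1.5-fold in the Mll4-label library, and both libraries with an Mll4 label sat well below the others.

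The 2 members of the middle of the pathway had the lowest ratios to control in the Mll3/4-label library after Hk2. Aldoa (chr7:126795234-126800751), the aldolase of muscle and most other tissues, stood at 234.7 CPM in control, 310.7 in Mll3-label, 344.1 in Mll4-label and 90.8 in Mll3/4-label cells. It was above control in both single-label libraries and 2.59-fold below control in the Mll3/4-label library. Tpi1 (chr6:124810586-124814296), which interconverts the triose phosphates, stood at 285.1, 324.8, 199.6 and 101.1 CPM in the same order. It was 2.82-fold below control in the Mll3/4-label library and below control, within 1.5-fold, in the Mll4-label library.

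The members of the later, ATP-forming steps differed less. Gapdh (chr6:125161715-125166467), which oxidises the triose phosphate, stood at 1131, 1478, 1277 and 931 CPM in control, Mll3-label, Mll4-label and Mll3/4-label cells. Pgk1 (chrX:106187100-106203699), which makes ATP from its product, stood at 218.8, 275.3, 235.3 and 141.6. Pgk1 was therefore lowest in the Mll3/4-label library, at a log2 ratio of -0.63 to control, just past 1.5-fold. Eno1 (chr4:150236721-150248879), the enolase of most tissues, stood at 167.6, 219.1, 169.1 and 190.5 CPM and was the only member above control in the Mll3/4-label library, by 0.18 on the log2 scale. Pkm (chr9:59656368-59679375), the pyruvate kinase gene of most tissues, stood at 316.7, 461.1, 248.8 and 222.1. Its level was highest in the Mll3-label library, at a log2 ratio of 0.54 to control, which was the largest of the members there.

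Ldha (chr7:46841475-46855627), which regenerates NAD+ by making lactate, stood at 325.7 CPM in control, 387.0 in Mll3-label, 347.3 in Mll4-label and 188.6 in Mll3/4-label cells. It was 1.73-fold below control in the Mll3/4-label library and within 1.5-fold elsewhere. Coordinates are on GRCm38 (GENCODE release M21), and all 10 genes are annotated as protein coding. Gapdh, Aldoa, Eno1 and others have near-identical retrocopies or pseudogenes, and reads that match several copies make their levels uncertain. The separately counted copy Eno1b had 0.886 to 2.07 CPM, and a read-through gene that shares the Aldoa symbol had 0.0591 to 0.193.

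Against control, the Mll3-label library had 9 of 10 members higher and 0 past 1.5-fold in either direction. Among the 6084 genes whose mean over both libraries reached 20 CPM, 1.99% were higher and 3.21% lower by that fold, and 69.8% had a ratio above 0 on the log2 scale. The members' median log2 ratio was 0.29, against 0.10 over all those genes. The ratios of Aldoa, Gapdh and Eno1 were 0.40, 0.39 and 0.39, next to the 0.54 of Pkm. Hk2 at 0.09 changed sign under TMM scaling, which shifted the ratios of this library by -0.10, and lay at -0.08 with antibody groups weighted to control shares. Over all alternatives the ratio of Hk2 ranged from -0.08 to 0.42. Of the members, 8 passed the minimum of 20 CPM, and Slc2a1 and Hk2 did not.

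Hk2 stood far above control in the Mll4-label library, and the other members lay on both sides of control, with 6 of all 10 ratios above 0 and 4 below. Hk2 alone was higher by at least 1.5-fold, with 11.8% of all genes above the minimum higher by that fold, and Pfkl alone was lower, with 13.8% of genes lower. The log2 ratio of Hk2 was 2.22 (2.15 to 2.29) and that of Pfkl was -0.78 (-0.83 to -0.73). Hk2 passed the minimum in this comparison only through its high level in the Mll4-label cells. Aldoa lay just inside the threshold at 0.55 and Tpi1 at -0.51. The count of lower members was 0 with the antibody groups weighted to control shares and 3 among cells without mitotic transcripts, where 20.3% of all genes were lower, so the call of Pfkl rests on which cells are compared. The count of higher members was 2 under TMM and median-of-ratios scaling, where Aldoa passed. The members' median was 0.05, with -0.12 over all genes, and its sign changed among the alternatives, from -0.14 to 0.17.

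The Mll3/4-label library had 7 members lower than control by at least 1.5-fold and 0 higher, while 18.7% of all genes above the minimum were lower and 13.1% higher. The 7 were Slc2a1, Hk2, Pfkl, Aldoa, Tpi1, Pgk1 and Ldha. Of the 8 members above the minimum, 5 were lower by that fold. The members' median log2 ratio was -0.82, with -0.07 over all genes. Gapdh at -0.28, Eno1 at 0.18 and Pkm at -0.51 stayed within 1.5-fold. Under TMM and median-of-ratios scaling the count was 6, as Pgk1 came inside the threshold. In all, 99.4% of these cells were high for the B-lineage list, against 0.261% in control, and the part of that difference in these ratios was not tested.

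**Figure D2:**
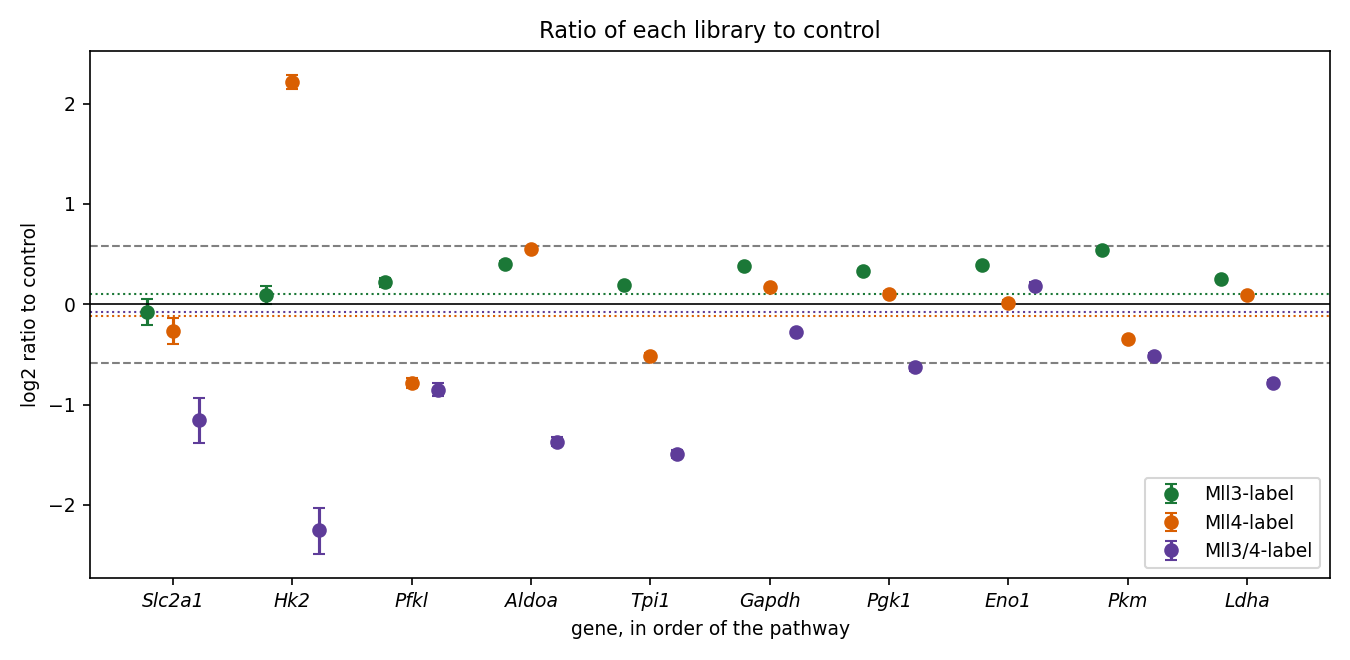
Log2 ratio to control of each member in the 3 mutant libraries, with 95% counting intervals; dashed lines mark 1.5-fold and dotted lines the median over all genes in each library. Hk2 lies at 2.22 in the Mll4-label and -2.25 in the Mll3/4-label library, and 7 members lie below the lower line in the Mll3/4-label library.

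Set directly against the other mutant libraries, the Mll3/4-label library was again the low one. Against the Mll3-label library 9 members were lower by at least 1.5-fold, all but Eno1 at -0.20, and 0 higher, where 25.1% of all genes were lower and 13.9% higher. Against the Mll4-label library 6 were lower and 0 higher, where 19.4% of all genes were lower and 16.8% higher. The 6 were Hk2 at -4.47, Aldoa at -1.92, Tpi1 at -0.98, Slc2a1 at -0.89, Ldha at -0.88 and Pgk1 at -0.73. Gapdh at -0.46, Pkm at -0.16, Pfkl at -0.07 and Eno1 at 0.17 stayed within the threshold. Slc2a1 lay under the 20 CPM minimum in both comparisons. Hk2 did so against the Mll3-label library, and passed against the Mll4-label library only through its high level there.

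The 4 genotypes allow the Mll3/4-label ratio to be set against the sum of both single-label ratios, all of which share the control. The deviation was below 0 for 10 of 10 members, with a median of -0.95, while 56.1% of 6125 genes were below 0 with a median of -0.10. It was -4.56 (-4.80 to -4.32) for Hk2, -2.33 for Aldoa, -1.17 for Tpi1, -1.13 for Ldha and -1.06 for Pgk1. The smallest were those of Pfkl at -0.29 and Eno1 at -0.21. The different cell makeup of the libraries enters this value too.

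Cells were next divided by surface CD150 and CD48, 2 proteins that separate stem cells (CD150+CD48-) from progenitors. The 4 groups held 146 to 3955 cells per library, and CD150-CD48+ cells made up 54.4% of control, 29.6% of Mll3-label, 80.5% of Mll4-label and 18.5% of Mll3/4-label cells. The CD150+CD48- group of the Mll3/4-label library depended on the scale: it held 40.4% of cells with antibody counts centred within each cell and 4.42% without centring. Its median CD150 count was 50, against 155.5 in the control group of that name.

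Hk2 was high in all 4 groups of the Mll4-label library and low in all 4 groups of the Mll3/4-label library. In CD150+CD48- cells it stood at 18.9 CPM in control, 21.1 in Mll3-label, 89.3 in Mll4-label and 3.21 in Mll3/4-label cells. In CD150-CD48+ cells it stood at 14.8, 12.8, 74.7 and 3.78 in the same order. In the Mll4-label library the log2 ratio to control was 2.24 in CD150+CD48-, 1.90 in CD150-CD48-, 2.09 in CD150+CD48+ and 2.33 in CD150-CD48+ cells, with counting intervals that reach from 1.69 to 2.43. Hk2 was the only member higher by at least 1.5-fold in CD150+CD48- (7.91% of all genes), CD150-CD48- (7.68%) and CD150+CD48+ cells (8.37%), and was joined by Aldoa in CD150-CD48+ cells (13.1%). Hk2 lay under 20 CPM in every control group. It passed the minimum behind these shares only through its high level in the Mll4-label cells.

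Pfkl and Aldoa differed between the groups of the Mll4-label library. The log2 ratio of Pfkl to control was -0.94 in CD150-CD48+ cells and -0.19, -0.39 and -0.36 in CD150+CD48-, CD150-CD48- and CD150+CD48+ cells. That of Aldoa was 0.72 (0.69 to 0.74) in CD150-CD48+ cells and 0.09, -0.06 and 0.37 in the others. Pfkl and Tpi1 were lower by at least 1.5-fold in CD150-CD48+ cells, where 15.9% of all genes were, and 0 members were in CD150+CD48- (8.58% of genes), CD150-CD48- (10.2%) and CD150+CD48+ cells (9.60%). The CD150-CD48+ group held most of the cells high for the macrophage, mast cell or T, NK and innate lymphoid lists, which made up 46.4% of it, against 1.04%, 9.65% and 11.6% of the other groups in the same order. Their part in the group difference was not tested here.

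Each group of the Mll3/4-label library had 5 to 7 of the 10 members lower than control by at least 1.5-fold, and Eno1 was above control in all 4. The number lower by at least 1.5-fold was 6 in CD150+CD48- cells (19.0% of all genes), 5 in CD150-CD48- (19.2%), 7 in CD150+CD48+ (20.4%) and 7 in CD150-CD48+ cells (18.9%). The number higher was 0 in each, where 14.4%, 13.9%, 15.3% and 12.8% of all genes were higher in the same order. Each count of lower members includes Slc2a1 and Hk2, which lay under the 20 CPM minimum behind these shares. Of the 8 members above it, only Pfkl, Aldoa and Tpi1 were lower by that fold in CD150-CD48- cells. Aldoa ranged from -1.67 to -1.14 and Tpi1 from -1.55 to -1.29. Ldha spread most among the well-counted members, from -1.30 in CD150+CD48+ to -0.29 in CD150-CD48- cells. Gapdh was at -0.07 in CD150+CD48- and 0.03 in CD150-CD48- cells but at -0.38 in CD150-CD48+ cells. Eno1 was above control by 0.05 to 0.48, and its interval in CD150+CD48+ cells included 0.

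In the Mll3-label library Pkm and Gapdh led in every group. Pkm had log2 ratios to control of 0.64, 0.54, 0.69 and 0.48 in CD150+CD48-, CD150-CD48-, CD150+CD48+ and CD150-CD48+ cells, and Gapdh had 0.56, 0.51, 0.54 and 0.46. Pkm was higher by at least 1.5-fold in CD150+CD48- cells, where 2.07% of all genes were, and in CD150+CD48+ cells, where 2.97% were. The call in CD150+CD48- cells was lost under median-of-ratios scaling, at 0.54, and with totals free of mitochondrial and ribosomal genes, at 0.55. There were 0 members higher in CD150-CD48- and CD150-CD48+ cells, where 3.25% and 2.67% of all genes were. Slc2a1 was the only member below control in all 4 groups, and its interval included 0 in CD150-CD48- and CD150-CD48+ cells. In CD150+CD48+ cells it was lower by at least 1.5-fold, at -0.72 on 23 UMIs, where 3.83% of all genes were. That call was lost with antibody counts not centred, at -0.27, with thresholds fitted in each library, at -0.35, and without cells near a threshold, at -0.45. There were 0 lower members in CD150+CD48-, CD150-CD48- and CD150-CD48+ cells, where 3.05%, 2.94% and 3.16% of genes were lower.

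**Figure D3:**
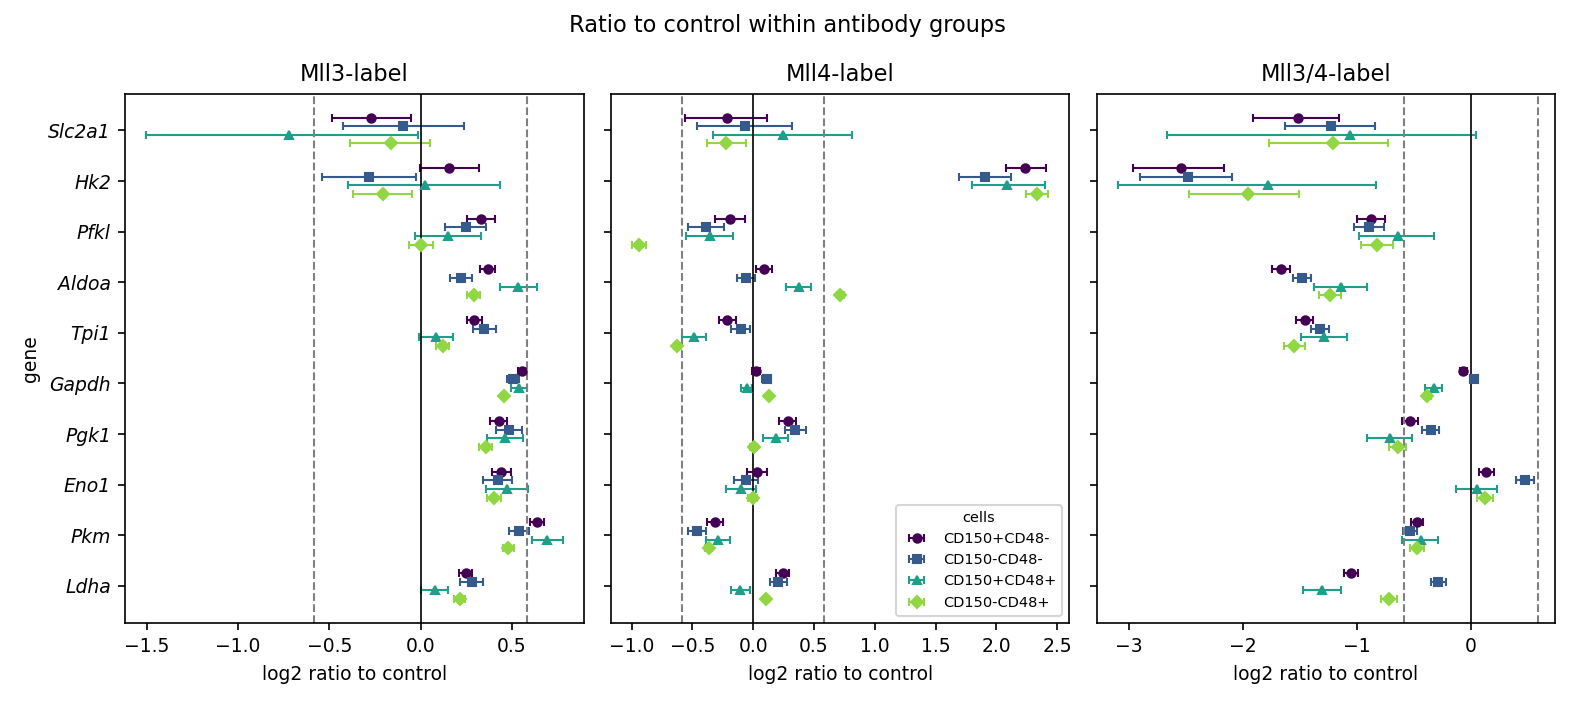
Log2 ratio to control of each member within the 4 antibody groups of each mutant library, with 95% counting intervals and dashed lines at 1.5-fold; the panels have different horizontal scales. In the Mll4-label panel Hk2 lies at 1.90 to 2.33 in every group, while Pfkl and Aldoa lie farthest from control in CD150-CD48+ cells.

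Within a library most members differed by less than 1.5-fold between the highest and the lowest of the 4 antibody groups. The exceptions in control were Slc2a1 (1.51-fold) and Ldha (1.82-fold), where 17.0% of all genes differed by that much. In the Mll3-label library they were Slc2a1 (2.15-fold), Hk2 (1.65-fold) and Ldha (1.58-fold), where 16.2% of genes did. Pfkl alone did in the Mll4-label library, at 1.71-fold, where 27.6% of genes did. In the Mll3/4-label library 0 members did, where 4.21% of genes did. Slc2a1 in control, and Slc2a1 and Hk2 in the Mll3-label library, lay under the 20 CPM minimum behind these shares. The lowest Slc2a1 value of the Mll3-label library rested on 23 UMIs. CD150-CD48+ cells had 0 members higher than CD150+CD48- cells by at least 1.5-fold in each library, where 4.04% of all genes were higher in control, 5.69% in Mll3-label, 11.7% in Mll4-label and 0.173% in Mll3/4-label cells. The number lower was 0 in control (4.95% of genes), 1 in Mll3-label (Hk2 at -0.72, 6.47% of genes), 1 in Mll4-label (Pfkl at -0.77, 11.0% of genes) and 0 in Mll3/4-label cells (0.381%). Hk2 in the Mll3-label library lay under the 20 CPM minimum in this contrast too. Gapdh was higher in CD150-CD48+ cells in every library, by 0.43 in control, 0.33 in Mll3-label, 0.53 in Mll4-label and 0.11 in Mll3/4-label cells. In control, Ldha stood at 453.4 CPM in CD150+CD48+, 352.8 in CD150+CD48-, 317.7 in CD150-CD48+ and 249.8 in CD150-CD48- cells, so both CD150+ groups lay above both CD150- groups and no neighbouring intervals overlapped.

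Hk2 in the Mll4-label library was then followed through cells high for single marker lists. Cells high for the stem cell list had 93.4 CPM of Hk2 (292 cells) against 19.5 in control (796 cells), a log2 ratio of 2.26 (2.02 to 2.51). Cells high for the erythroid and megakaryocyte list had 61.4 against 12.8, a ratio of 2.26. Cells high for the granulocyte and monocyte list had 88.8 against 19.3, a ratio of 2.20. Cells high for the dendritic list had 61.0 against 22.6, a ratio of 1.42 (1.16 to 1.71), so the difference was smaller there. The level was thus more than 4-fold that of control in 3 of these 4 classes and 2.68-fold in the dendritic one. Macrophage-list and mast-cell-list cells of the Mll4-label library had 68.2 and 71.0 CPM, and control held too few of them for a ratio. Mature B and plasma cell list cells had 38.0 (325 cells) and T, NK and innate lymphoid list cells 21.3 (104 cells), the lowest of the classes measured in this library, and control held under 50 of each.

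Cells of the Mll4-label library that were high for none of 6 lists (macrophage, mast cell, mature B and plasma cell, T, NK and innate lymphoid, granulocyte and monocyte, B-lineage) numbered 1603, or 33.4%. In them Hk2 stood at 63.8 CPM against 16.0 in the matching 6616 control cells, 3.99-fold higher. Hk2 was again the only member past 1.5-fold, where 7.08% of all genes were higher, and 0 members were lower, where 6.90% were. Hk2 lay under 20 CPM in the control cells and passed the minimum behind that share only through its high level in the Mll4-label cells. In the cells high for none of the 6 lists the ratio of Aldoa was 0.04 and that of Pfkl was -0.34, so both were nearer control than in the whole library. The lists cut a continuous score: 298 cells of the Mll4-label library lay at 4 or 5 UMIs of the stem cell list and 613 at 4 or 5 UMIs of the granulocyte and monocyte list.

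**Figure D4:**
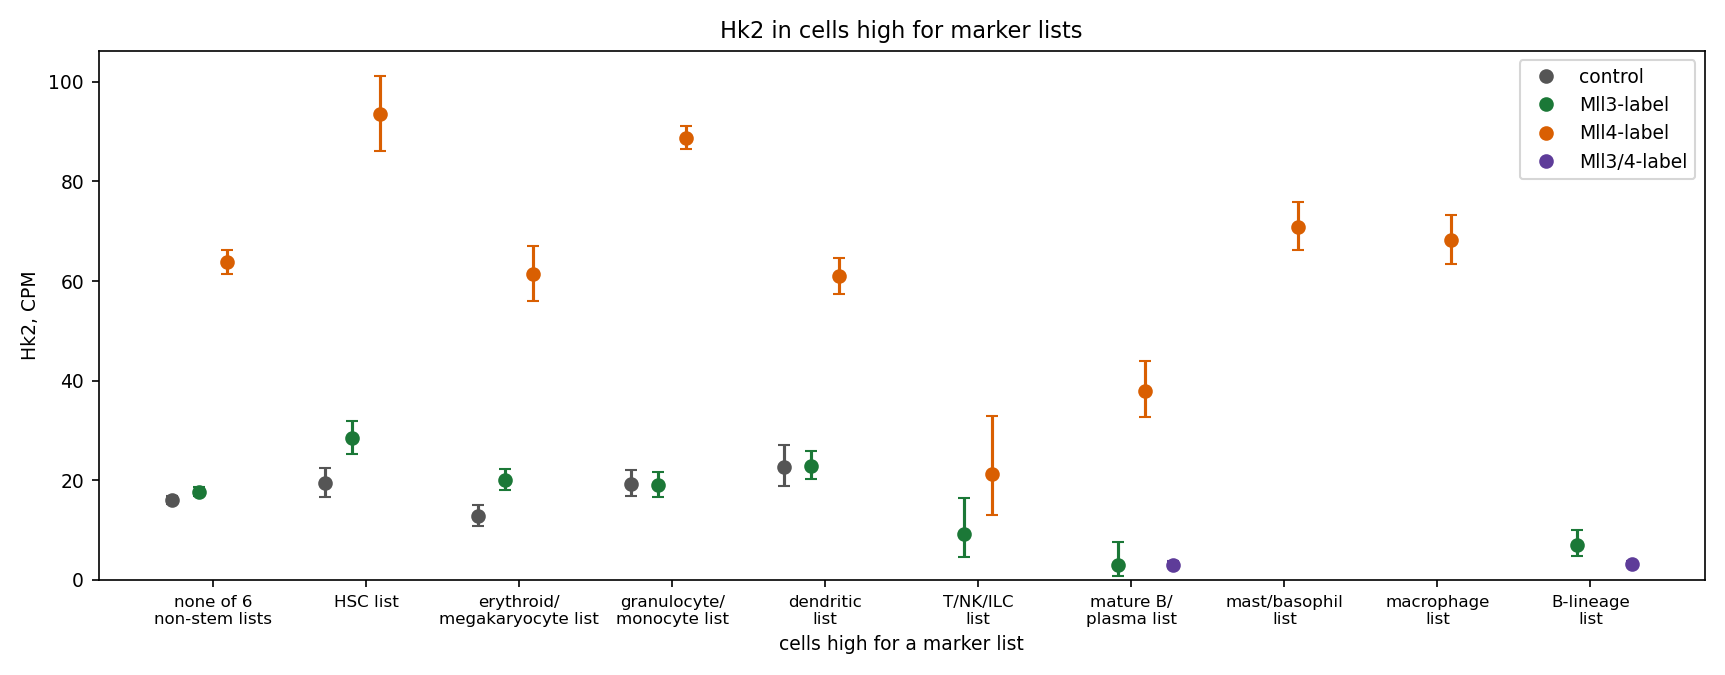
Level of Hk2 in CPM in cells grouped by marker list in each library, with 95% Poisson counting intervals. In every class drawn for both libraries the Mll4-label cells lie above the control cells, at 61.4 against 12.8 in the erythroid and megakaryocyte class, 93.4 against 19.5 in the stem cell class and 61.0 against 22.6 in the dendritic class.

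The low levels of the Mll3/4-label library could be set against like-classed cells of the Mll3-label library in 2 ways. The first used B-lineage-list cells, of which no other library had 50. There were 4721 such cells in the Mll3/4-label and 186 in the Mll3-label library, with median total UMIs of 8901 and 23379. Of the members, 8 were lower in the Mll3/4-label cells by at least 1.5-fold and 0 higher. Of all genes, 25.6% were lower and 18.9% higher. Hk2 is part of the count of 8 but lay under the 20 CPM minimum behind these shares. Gapdh stood at 926 against 2269 CPM and Ldha at 186 against 482. Eno1, which was above control in the whole library, stood at 190.8 against 310.1 here, and was thus lower than in the like-classed cells. Pfkl at -0.39 stayed within the threshold, and Slc2a1 at 0.24 (-0.47 to 1.15) rested on 15 UMIs in the Mll3-label cells. The libraries differ in genotype and depth at once, and the part of depth was not tested.

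The second used cells high for the mature B and plasma cell list, and here 9 members were within 1.5-fold in CPM. There were 2943 such cells in the Mll3/4-label and 57 in the Mll3-label library, and 28 of the 57 were also high for the B-lineage list. Hk2 stood at 3.03 CPM in the Mll3/4-label and 2.95 in the Mll3-label cells, Aldoa at 86.9 and 118.6, Tpi1 at 84.4 and 112.7, Pkm at 196.8 and 200.4, and Ldha at 145.4 and 157.7. Of the members, 0 were lower by at least 1.5-fold, where 7.64% of all genes were, and 1 was higher, Slc2a1 on 1 UMI in the Mll3-label cells, where 52.0% of genes were. The all-gene median was 0.62 on the log2 scale in this contrast, against -0.12 for the members, so most other genes were higher in the Mll3/4-label cells. The Mll3-label class is small and lies near the limit, with 40 cells at 4 or 5 UMIs of the list. In CPM, the size of the members' difference from the Mll3-label library thus differed with the B-cell list used. The all-gene median differed too, at -0.09 with the B-lineage list and 0.62 here.

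Only 18 cells of the Mll3/4-label library were high for none of the 6 lists. Hk2 stood at 14.1 CPM (5.67 to 29.1) in them, Aldoa at 260.1 (217.1 to 309.0) and Tpi1 at 314.5 (267.1 to 367.9), against 16.0, 230.7 and 287.8 in the matching control cells. In CPM these few cells were nearer control than the rest of their library for all members but Slc2a1 and Eno1. Slc2a1 stood at 4.03 on 2 UMIs, against 9.12 in the matching control cells. Eno1 stood at 201.6 against 164.0. Their median total was 28132 UMIs per cell, against 8920 in the whole library, and the part of depth was not tested.

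Inside the Mll3-label library, B-lineage-list cells differed from the other cells in a pattern of their own. Slc2a1, Hk2, Pfkl and Aldoa were lower in them by at least 1.5-fold, at log2 ratios of -1.35, -1.31, -0.72 and -0.91. Of all genes, 18.3% were lower, and Slc2a1 and Hk2 lay under the 20 CPM minimum behind that share. Gapdh was higher, at 0.65, where 12.9% of all genes were. Eno1 at 0.53 and Ldha at 0.33 were above the other cells within the threshold.

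Glycolysis members also differed between cells with and without transcripts of cell division. Cells thinned to 3000 UMIs were called G2M-positive with at least 2 UMIs of 16 mitotic genes (Mki67, Top2a, Cdk1 and others) and G2M-negative with 0. The positive share was 38.2% in control, 41.4% in Mll3-label, 38.3% in Mll4-label and 29.0% in Mll3/4-label cells. Positive cells were deeper, with median total UMIs of 21514 against 11573 in control and 38973 against 13136 in the Mll4-label library, and the part of depth in the differences was not tested.

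Aldoa stood out in this contrast. It had 159.1 CPM in G2M-positive and 322.6 in G2M-negative control cells, a log2 ratio of -1.02 (-1.06 to -0.98), and ratios of -0.95 in the Mll3-label and -0.79 in the Mll3/4-label library. In the Mll4-label library its ratio was 0.05. Tpi1, the next enzyme, went the other way, at 0.42, 0.44, 0.68 and 0.56 in control, Mll3-label, Mll4-label and Mll3/4-label cells, as did Gapdh at 0.32, 0.39, 0.66 and 0.66. In control, Aldoa alone was lower by at least 1.5-fold, where 3.52% of all genes were, and 0 members were higher, where 7.83% were. In the Mll3-label library Aldoa and Hk2 (at -1.06) were lower, where 4.60% of genes were, and 0 were higher, where 9.12% were. Hk2 lay under the 20 CPM minimum behind these shares.

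In the Mll4-label library 3 members (Tpi1, Gapdh and Pgk1) were higher in G2M-positive cells and 0 lower, where 15.4% of all genes were higher and 13.8% lower. With cells thinned to 2000 UMIs the 3 became 0, though the ratios moved little: Tpi1 from 0.68 to 0.55, Gapdh from 0.66 to 0.57 and Pgk1 from 0.67 to 0.58, just inside 1.5-fold. In the Mll3/4-label library Gapdh and Ldha were higher and Aldoa lower, where 13.1% of genes were higher and 7.26% lower. With only the cells high for none of the 6 lists, the ratio of Aldoa in the Mll4-label library was -0.75 (-0.82 to -0.69), next to -1.11 in control and -1.04 in the Mll3-label library. The members lower by at least 1.5-fold were then Aldoa and Hk2 in each of these 3 libraries. Of all genes, 3.35%, 3.82% and 5.70% were lower in control, Mll3-label and Mll4-label cells. In control and Mll3-label cells Hk2 lay under the 20 CPM minimum behind these shares. The number of members higher was then 0 in each of the 3 libraries. Of all genes, 7.57%, 7.94% and 8.49% were higher in control, Mll3-label and Mll4-label cells. The log2 ratio of the members' sum in the Mll4-label library was 0.13 in these cells, against 0.48 without leaving out list-high cells.

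**Figure D5:**
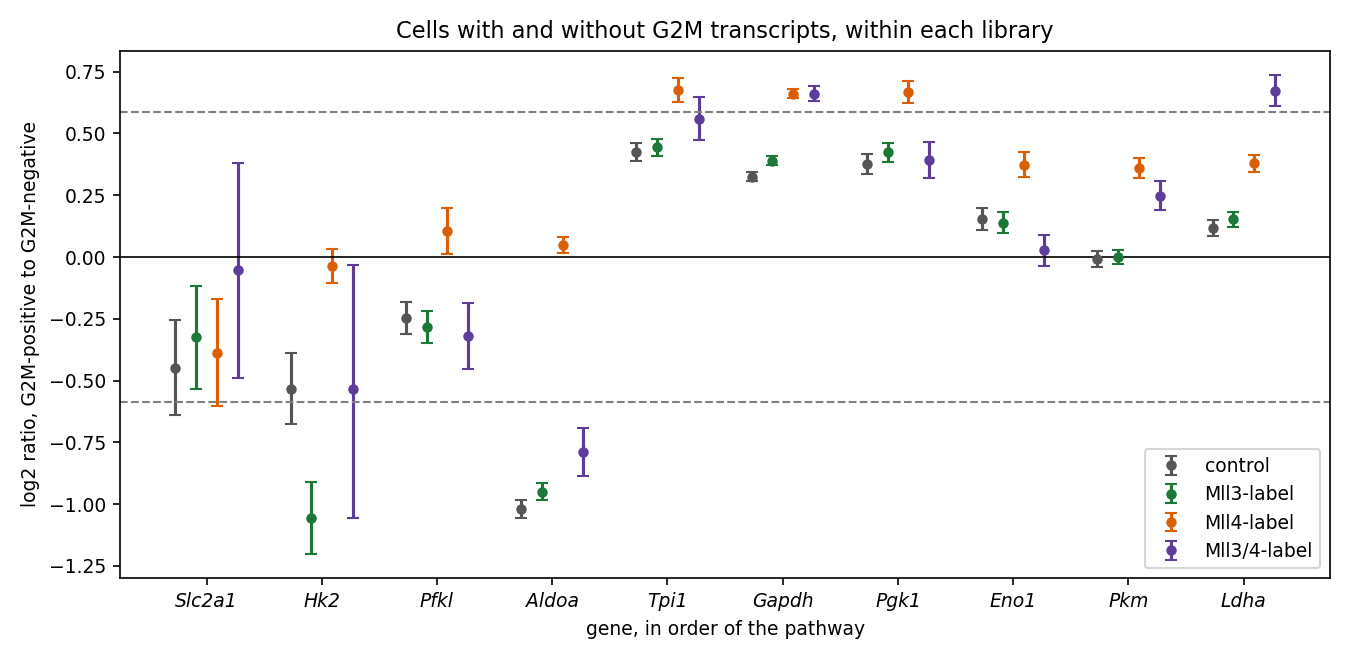
Log2 ratio of each member in G2M-positive against G2M-negative cells within each library, with 95% counting intervals and dashed lines at 1.5-fold. Aldoa lies between -1.02 and -0.79 in 3 libraries and at 0.05 in the Mll4-label library, while Tpi1 lies between 0.42 and 0.68 in all 4.

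Hk2 kept its direction against control in both G2M classes. Its log2 ratio in the Mll3/4-label library was -2.31 among G2M-negative and -2.32 among G2M-positive cells. The Mll4-label library had 1.99 (1.88 to 2.11) among G2M-negative and a larger ratio, 2.49 (2.38 to 2.60), among G2M-positive cells. Gapdh in the Mll3/4-label library was at -0.08 among G2M-positive and -0.41 among G2M-negative cells.

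The rest of the pathway was read from lists of related genes. Of 29 other genes of glucose uptake, glycolysis and lactate transport, 7 passed the minimum in the Mll3/4-label comparison. By at least 1.5-fold, 4 of them were lower and 1 higher, where 18.7% of all genes were lower and 13.1% higher. Slc2a3, which encodes the high-affinity transporter GLUT3, went from 35.3 to 7.03 CPM. The hexokinase gene Hk1 went from 80.3 to 32.3, Ldhb from 59.9 to 26.7, and Pgam1, the phosphoglycerate mutase between Pgk1 and Eno1, from 208.5 to 97.0. Slc16a1, which encodes the lactate transporter MCT1, went the other way, from 25.9 to 54.7. Of these genes 8 passed in the Mll4-label library, 2 higher and 1 lower: Hk3, a hexokinase gene of myeloid cells, went from 24.2 to 48.7 and Slc2a3 from 35.3 to 15.8. Of all genes, 11.8% were higher and 13.8% lower in this comparison. Among cells high for none of the 6 lists, 0 of 9 were higher and 0 lower, where 7.08% and 6.90% of all genes were. In the Mll3-label library 9 passed, with 3 higher, 0 lower and none past 2-fold. Of all genes, 1.99% were higher and 3.21% lower there.

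Of 7 pentose phosphate genes, the branch that makes NADPH and ribose, 2 of 7 measured were higher in the Mll4-label library. Of all genes, 11.8% were higher there. G6pdx, the first enzyme of the branch, had a log2 ratio of 1.06 from 15.4 CPM in control. It lay under 20 CPM in control and entered the count only through its high level in the Mll4-label cells. Among cells high for none of the 6 lists, 0 of 6 were higher and 0 lower, where 7.08% and 6.90% of all genes were. In the Mll3/4-label library 1 of 6 was lower, the transketolase gene Tkt at -1.08, where 18.7% of all genes were. Of 13 genes for the entry of pyruvate into mitochondria, 8 passed in each comparison. In the Mll4-label library 1 was higher, where 11.8% of all genes were, and in the Mll3/4-label library 1 was lower, where 18.7% were. In the Mll3-label library 0 were higher, where 1.99% of all genes were, and 0 lower, where 3.21% were. Of 22 hypoxia-response genes, 4 of 10 measured were higher and 0 lower in the Mll4-label library, where 11.8% of all genes were higher. Cited2 went from 101.1 to 250.9 CPM, Ero1l from 18.4 to 41.0 and Ddit4 from 12.7 to 28.1. Ero1l and Ddit4 lay under 20 CPM in control and entered the count only through their high level in the Mll4-label cells, so the count is no support for a rise of the list. Among cells high for none of the 6 lists 1 of 8 was higher, where 7.08% of all genes were, and the list's median was -0.05. In the Mll3/4-label library 2 of 9 were higher and 0 lower, where 13.1% of all genes were higher and 18.7% lower. Ddit4 had a log2 ratio of 1.55, from 12.7 to 37.2 CPM. It entered that count only through its high level in the Mll3/4-label cells. Of 5 gluconeogenesis genes 2 passed, and G6pc3 was lower in the Mll3/4-label library at -1.37, where 18.7% of all genes were lower.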

How the data were processed

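The deposited files hold raw counts of UMIs and antibody tags per cell barcode, 1 matrix for each of the 4 libraries. Per the labels' protocols they came from 10x Genomics Chromium 3′ chemistry, and per the submitters' processing notes from Cell Ranger 6.1.1 with build mm10; how multi-mapped reads were treated is not given in the sources used here. Groups were taken from the sample titles.

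Cells were kept when 1000 or more genes were detected and mitochondrial genes took no more than 10% of UMIs. Scrublet, run in scanpy 1.11.5, called 3, 3, 171 and 1 doublets (control, Mll3, Mll4, Mll3/4), too few to have worked in 3 libraries, so doublets were removed only as an alternative. UMIs were summed over cells and scaled to 1000000 per library or group (CPM). Ratios to control are log2 after adding 0.5 UMIs, with exact conditional binomial (Clopper-Pearson) intervals, and levels have exact Poisson intervals. PCR duplicates are collapsed by UMIs, but intervals cover counting error only. The 3 comparisons with control share its library. A gene was called at 1.5-fold or more, and the background share is over genes whose mean reached 20 CPM. Counts of members cover all 10 unless stated, also members under that minimum.

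For CD150 and CD48, a centred log ratio was computed in each cell, and 1 threshold per antibody, the crossing of a Gaussian mixture, was used for all libraries. Classes of cells by marker list or G2M transcripts used cells thinned to 3000 UMIs. The G2M classes left out the 14, 17, 134 and 33 cells below that depth, in the order above. The marker classes kept those cells without thinning. Coordinates come from GENCODE M21, where 32158 of the 32285 gene identifiers (99.61%) were found. The ratio script was tested on simulated data. Alternatives covered cell filters, doublets, equal weight per cell, scaling (edgeR 4.0.16 TMM, median of ratios), totals without mitochondrial and ribosomal genes, cells of other types left out, antibody thresholds, group weights, and the G2M cut and depth. Leaving out cells high for 3 or for 6 marker lists, and using G2M-negative cells only, were chosen after seeing the data. All 10 members were computed in every comparison and are named in those of whole libraries; elsewhere those past 1.5-fold and examples of the rest are named. Of other pathway genes those past 2-fold are named, up to 5 a list, as are the 5 genes most like the members' sum. The members and lists were chosen with earlier results of these data known.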

Additional observations from a re-analysis of the deposited data

Results flagged for a closer look

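Hk2 moved in opposite directions in the libraries with an Mll4 label: its log2 ratio to control was 2.22 in the Mll4-label and -2.25 in the Mll3/4-label library. The direction held in each of the 4 antibody groups of both libraries. With 1 library per genotype the difference was not tested, and the cell makeup of the libraries differed, with 0.459% and 99.4% of cells high for the B-lineage list.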

How the results depend on the processing

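No paired analysis was possible because each genotype has 1 library. No called value changed its sign under any alternative run. The median log2 ratio of the members ranged from 0.19 to 0.32 in the Mll3-label, -0.14 to 0.17 in the Mll4-label and -0.96 to -0.68 in the Mll3/4-label library. That of Hk2 ranged from 1.99 to 2.33 in the Mll4-label and -2.63 to -2.10 in the Mll3/4-label library. In the Mll3/4-label library 5 to 8 members were lower than control by at least 1.5-fold, with 7 as reported.

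Counts that left the 1.5 times range of the reported ones changed by 1 to 3 genes, and the cause was not tested. Members lower in the Mll4-label library than in control numbered 1 as reported, 2 with equal weight per cell, 3 in G2M-negative cells, 0 without cells high for 6 lists and 0 with weighted antibody groups. Members higher there numbered 1 as reported and 2 without cells high for 4 lists, under median-of-ratios scaling and under TMM. In CD150-CD48+ against CD150+CD48- cells, the members lower were 0 in place of 1 in the Mll3-label library with the stricter cell filter, and 1 in place of 0 in control with equal weight per cell. In the Mll4-label library that contrast had 1 lower as reported, 2 without cells high for 4 or for 3 lists and with totals free of mitochondrial and ribosomal genes, and 0 under TMM. It had 0 higher as reported, 1 without cells high for 4 or for 3 lists and under median-of-ratios scaling, and 2 under TMM. Between G2M-positive and G2M-negative cells, the members lower were 2 in place of 1 in control and in the Mll3/4-label library, both with 4 or more G2M UMIs and with cells thinned to 2000 UMIs. The members higher in the Mll4-label library were then 0 in place of 3 at 2000 UMIs. Within single antibody groups, counts against control also moved by 1. In the Mll3-label library the members higher in CD150+CD48+ cells were 1 to 2 and in CD150+CD48- cells 0 to 1, both 1 as reported, and the lower ones in CD150+CD48+ cells 0 to 1, with 1 as reported. For the Mll4-label library the higher ones were 1 to 2 in CD150+CD48+ (1 as reported) and CD150-CD48+ cells (2 as reported), and the lower ones 1 to 2 in CD150-CD48+ cells (2 as reported). In CD150-CD48- cells of the Mll3/4-label library the higher ones were 0 to 1, with 0 as reported. The median over all genes shifted by at most 0.12 under the scalings tried. Depth limits Slc2a1 and Hk2 most, with 203 and 172 UMIs in the Mll3/4-label library.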

Other observations

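Across the 16 points given by 4 libraries and 4 antibody groups, each centred on its library's mean, the genes most like the summed level of the 10 members were Slc25a5, Rwdd1, Psmb5, Pcbp1 and Uqcrq, with Pearson r of 0.96 each among 6177 genes. Slc25a5 encodes a carrier that exchanges ATP and ADP across the mitochondrial membrane, Psmb5 a proteasome subunit and Uqcrq a subunit of respiratory complex III. Members that are part of that sum ranked lower, with Eno1 at 0.91, Gapdh at 0.91, Pgk1 at 0.80 and Ldha at 0.60. Pkm at 0.13, Tpi1 at 0.01 and Aldoa at 0.01 did not follow it, and Hk2 at -0.24 and Pfkl at -0.51 lay on the other side of 0. The points of a library share its depth and cells, so these values are a description.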
